A study of Mus musculus with 18 samples.

Results

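The genes that encode the proteasome, its activators and its assembly chaperones were followed through polysome gradients of wild-type (WT) and Ddx6 knockout (Ddx6 KO) mouse embryonic stem cells (ESCs). Members were the protein-coding genes whose symbols begin with Psma to Psmg followed by a number. Of 50 such genes, 47 reached 3 CPM, that is, counts per library scaled by depth, in 3 or more of the 18 libraries, out of 12705 genes that passed this filter. They comprised 17 genes of the 20S core particle (Psma and Psmb), 20 genes of the 19S regulatory particle (Psmc and Psmd), 9 genes for activators, an inhibitor and 20S assembly chaperones (Psme, Psmf and Psmg), and Psmc3ip, a meiotic recombination factor that shares the symbol pattern but is not a proteasome subunit. Psmb8, Psmb11 and Psme2b did not pass.

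The cells, of the V6.5 line, were cultured with serum, LIF and the kinase inhibitors called 2i, and ribosomes were arrested with 100 µg/ml cycloheximide in both genotypes. DDX6 is an RNA helicase of translational repression and mRNA decay. Each of the 3 gradients per genotype gave a monosome fraction, a low polysome fraction of 2 to 4 ribosomes and a high polysome fraction of 4 or more ribosomes, which made 6 groups of 3 libraries. The KO cells were 2 clones, with clone 1 in KO gradient 1 and clone 2 in the other KO gradients. The 3 KO gradients thus stand for 2 lines, and differences between lines cannot be told apart from the loss of Ddx6. The labels do not say whether gradients of a genotype came from separate cultures, so that p-values measure the spread between gradients, which may be technical.

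The proteasome degrades proteins tagged with ubiquitin. The 20S particle is a barrel of outer rings of alpha subunits and inner rings of beta subunits, and 3 of the beta subunits, PSMB5, PSMB6 and PSMB7, carry the proteolytic sites. The 19S particle caps the barrel. Its base contains a ring of ATPases (Psmc1 to Psmc6) that unfold the substrate, and its lid contains the enzyme that removes ubiquitin chains (Psmd14). Interferon induces alternative catalytic subunits (Psmb8, Psmb9 and Psmb10) and the PA28 activator (Psme1 and Psme2), which favour the production of peptides for antigen presentation.

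Library totals were 2543617 to 11474550 gene counts. Ddx6 was at 143 to 212 CPM in the 9 WT libraries, at 55.3 to 82.7 CPM in the libraries of clone 1 and at 9.68 to 26.7 CPM in those of clone 2, so transcript remained in the KO libraries. All 7 ESC markers were measured, with summed levels of 1889 to 4481 CPM in WT and 2132 to 3388 CPM in Ddx6 KO. The summed levels of 5 fibroblast markers (3.95 to 11 CPM), 4 endoderm markers (1.99 to 8.80 CPM), 3 mesoderm markers (0.82 to 2.86 CPM) and 3 blood markers (2.28 to 5.46 CPM in WT and 3.63 to 9.41 CPM in Ddx6 KO) were low. Of 3 markers each, neural summed to 43.4 to 113 CPM over all libraries, trophoblast to 14.6 to 21.4 CPM in WT and 19.9 to 51.1 CPM in Ddx6 KO, and primed epiblast was lower in Ddx6 KO (11.7 to 26.2 CPM) than in WT (35.8 to 80.3 CPM), and the part of these markers in the proteasome results was not tested. In such bulk samples fewer cells of a type and less RNA per cell cannot be told apart.

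Proteasome mRNAs were concentrated in the WT high polysome. Translation level was defined as the log2 ratio of the high polysome to the monosome. It was above 0 and passed the test (limma, adjusted p under 0.05 over all 12705 genes) for 42 of 47 members, where 28.9% of all tested genes were called higher. Psmg4 and Psmb10 were called lower, where 32.2% of all tested genes were, and Psmb9, Psme2 and Psmc3ip were not called. The median over the 47 members was 1.30, against -0.018 over all tested genes. All 7 alpha ring genes, all 7 standard beta ring genes, all 6 ATPase genes and all 8 lid genes were called higher, with median values of 1.56, 1.71, 1.31 and 1.35. The call of Psma3, an alpha ring gene, was lost without WT gradient 3 (limma adjusted p = 0.0678). Psmg2, an assembly chaperone gene, lost its call with WT gradient 1 omitted (limma adjusted p = 0.0645) and with WT gradient 2 omitted (0.173). A correction for coding length also removed the Psmg2 call (limma adjusted p = 0.235).

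The catalytic subunit gene Psmb5 (ENSMUSG00000022193.6; chromosome 14, 54614120 to 54617995, minus strand, GRCm38) had the highest translation level in WT. It was at 57.3, 71.8 and 70.9 CPM in the monosome and at 304, 311 and 312 CPM in the high polysome of WT gradients 1, 2 and 3, which gave a fitted log2 ratio of 2.20 ± 0.14 (SE, limma adjusted p = 7.3e-11). Psma4, an alpha ring subunit, was next, with 35.0, 58.3 and 36.3 CPM in the monosome, 161, 238 and 166 CPM in the high polysome and a log2 ratio of 2.12 ± 0.20 (limma adjusted p = 1.93e-08). For both genes every high polysome value lay above every monosome value, and the values for the pair differed by less than their standard errors.

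The opposite distribution was found for Psmg4, an assembly chaperone (PAC4) that acts on the alpha ring. It was at 239, 247 and 225 CPM in the WT monosome and at 45.8, 50.4 and 45.8 CPM in the WT high polysome, a log2 ratio of -2.32 ± 0.14 (limma adjusted p = 3.39e-11). Psmb10, an interferon-inducible catalytic subunit, was at 33.8, 33.2 and 34.2 CPM in the WT monosome and at 10.9, 9.60 and 16.2 CPM in the WT high polysome, a log2 ratio of -1.49 ± 0.22 (limma adjusted p = 7.22e-06). Psmg3, whose product (PAC3) pairs with PAC4, had a log2 ratio of 0.55 ± 0.16 and the chaperone pair Psmg1 and Psmg2 (PAC1 and PAC2) had levels of 1.30 ± 0.16 and 0.34 ± 0.18 (mean ± SD over 3 WT gradients), so that these 4 genes ranged from -2.32 to 1.30, where the alpha ring genes ranged from 0.71 to 2.12. The coding sequence of Psmg3 and Psmg4 is 366 to 369 nt long and is the shortest among the members.

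**Figure D1:**
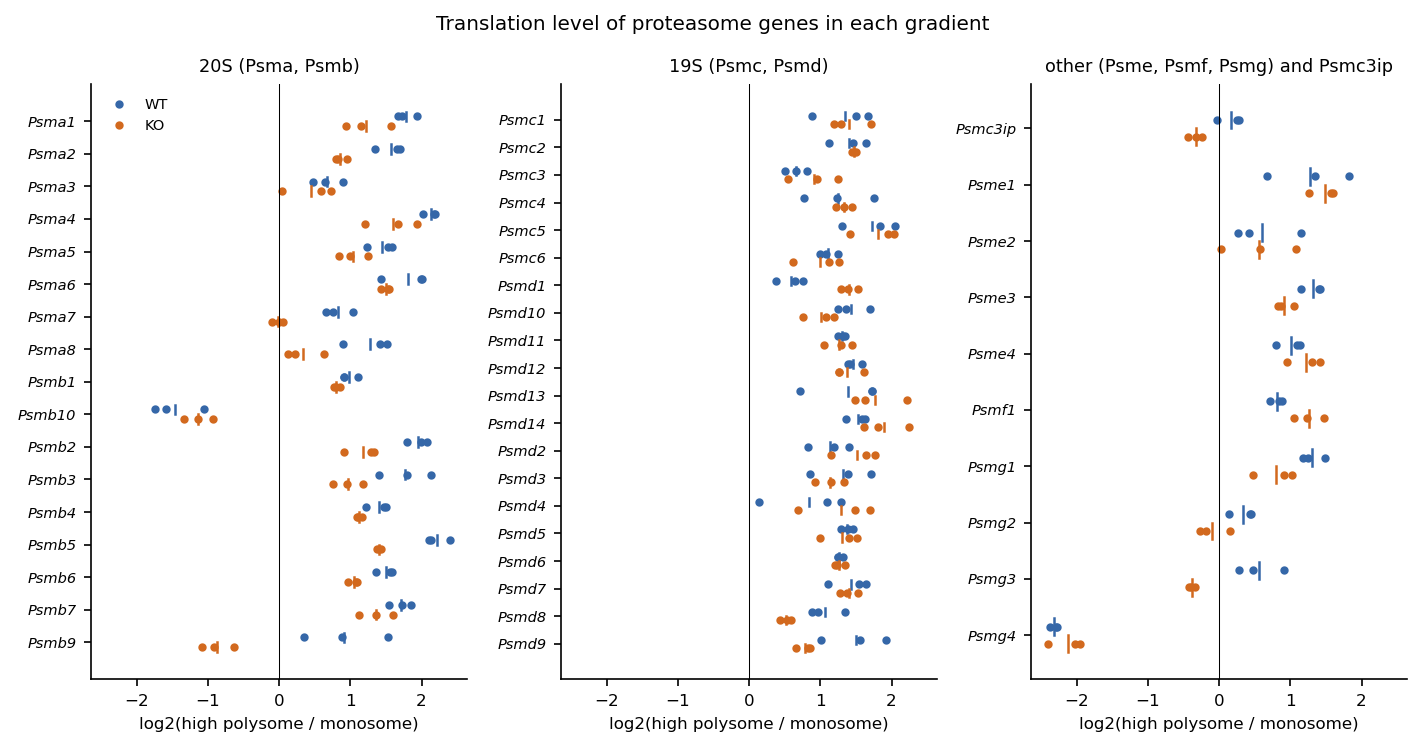
Translation level, log2(high polysome / monosome) of scaled CPM plus 0.5 CPM, of each of the 47 members in the 3 WT gradients (blue) and the 3 Ddx6 KO gradients (orange). Points are gradients and vertical ticks are group means. KO points lie below all WT points for 12 of 17 genes in the 20S panel and for 3 of 20 in the 19S panel, and Psmg4 and Psmb10 lie below 0 in every gradient.

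Sequences upstream of the transcription starts were compared between the 2 particles, since the promoters of proteasome genes are known to share activator sites. RefSeq promoters (GRCm38.p6) were found for 39 of the 47 members, 13 of them 20S and 17 of them 19S, and the 250 bases before each start were searched on both strands for letters of 5 known elements. CCGGAAG, the core bound by ETS family factors, occurred in 8 of 17 matched 19S genes (Psmc1, Psmc2, Psmc6, Psmd2, Psmd4, Psmd6, Psmd11 and Psmd12) and in 1 of 13 matched 20S genes (Psma6), where 7.83% of all genes with a promoter in the table contain it. Over all matched members it occurred in 13 of 39. These included 3 of 8 matched activator, inhibitor and 20S chaperone genes (Psme3, Psme4 and Psmg1) and Psmc3ip. TGACNNNGC, the core of the antioxidant response element bound by the proteasome regulators NRF1 and NRF2, occurred in Psmb5, Psmb6, Psmc6, Psmd9 and Psmd12 (5 of 39, against 11.5% of all genes). By particle, 2 of 13 matched 20S genes and 3 of 17 matched 19S genes had it. The CCAAT box letters GATTGG occurred in 8 of 39 members (16.6% of all genes), GAAANNGAAA of the interferon-stimulated response element in 3 of 39 (3.46%) and TTCNNNGAA of the gamma-activated site in 1 of 39 (8.13%). A match of letters is a description and is not evidence of binding. Examples from each particle are shown 5′ to 3′ on the strand of the gene, with the matched letters in capitals. They lie at chr5:21785176-21785215 (plus strand), chr16:20651611-20651650 (plus), chr14:14120966-14121005 (minus), chr12:55398678-55398717 (plus) and chr14:54618018-54618057 (minus).
Psmc2, ETS core: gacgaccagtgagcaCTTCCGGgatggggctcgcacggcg
Psmd2, ETS core: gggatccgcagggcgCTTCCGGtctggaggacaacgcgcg
Psmd6, ETS core: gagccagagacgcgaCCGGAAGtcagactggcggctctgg
Psma6, ETS core: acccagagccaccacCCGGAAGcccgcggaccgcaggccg
Psmb5, antioxidant response element core: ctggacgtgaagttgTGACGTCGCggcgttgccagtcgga

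In Ddx6 KO ESCs the translation level was called lower for 6 of 17 20S subunit genes, of which Psma7 alone kept the call after a correction for coding length. The median KO effect was below that of all tested genes for the 20S, and near it for the 19S. The KO effect on translation level was the interaction term, the change of the log2 ratio of high polysome to monosome from WT to Ddx6 KO. Of the 17 genes of the 20S, 6 were lower and 0 higher, and of the 20 genes of the 19S, 2 were lower and 1 was higher (limma, adjusted p under 0.05). Over all 47 members, 9 were lower and 1 was higher, where 7.09% and 10.7% of all tested genes were called lower and higher. The median KO effect was -0.51 for the 20S, 0.022 for the 19S and 0.022 for all tested genes, and 16 of 17 20S estimates were negative against 10 of 20 for the 19S. Under library size alone in place of TMM scaling the medians moved to -0.63, -0.10 and -0.10, a shift shared with all tested genes. The count of lower members was 9 with all libraries, 5 without WT gradient 1, 4 without KO gradient 2 and 5 without KO gradient 3, and that of higher members was 0 with WT gradient 1, WT gradient 2 or KO gradient 3 left out and 2 without KO gradient 1. No gene of the 20S was called higher in any of these fits. The count of lower 20S genes was 3 without KO gradient 2 and 10 with only the compared groups fitted.

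The same division was seen in each gradient. The median translation level of the 20S genes was 1.58, 1.43 and 1.52 in WT and 0.96, 1.0 and 0.95 in Ddx6 KO. That of the 19S genes was 1.39, 1.04 and 1.37 in WT and 1.24, 1.31 and 1.36 in Ddx6 KO. The 20S medians of the genotypes did not overlap and the 19S medians did. The 20S median lay above the 19S median by 0.24 ± 0.13 (SD, n = 3) in WT and below it, at -0.33 ± 0.075 (SD, n = 3), in Ddx6 KO. With Psma8, Psmb9, Psmb10 and the base chaperones Psmd5, Psmd9 and Psmd10 left out, so that only subunits of the mature particles remained, the difference was 0.38 in WT and -0.24 in Ddx6 KO.

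Gene by gene, the translation level in every KO gradient lay below that in every WT gradient for 12 of 17 20S genes, for 3 of 20 19S genes and for 19 of 47 members, where 17.8% of all tested genes did so. The reverse order was found for Psmd1 and Psmf1, where 21.2% of all tested genes had it. Of the rings, 4 of 7 alpha genes and 6 of 7 standard beta genes had the KO gradients below WT, and none of the 6 ATPase genes did.

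**Figure D2:**
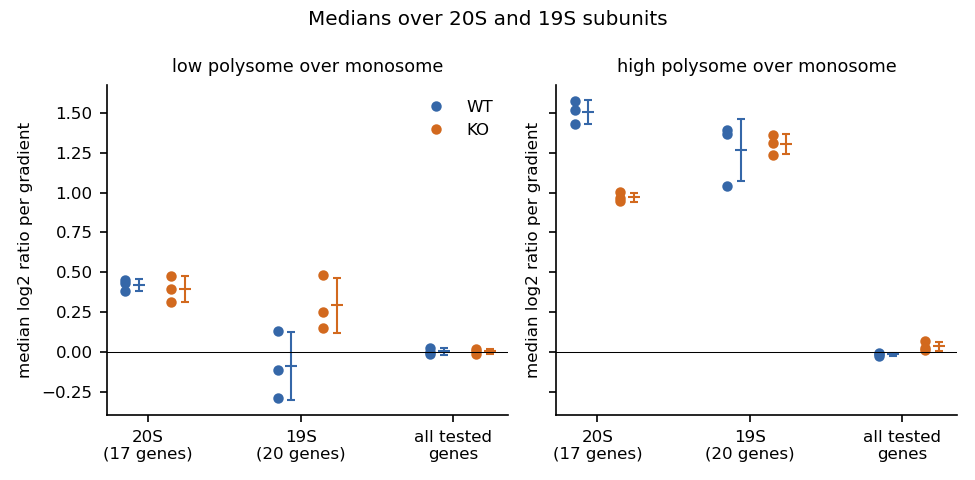
Median log2 ratio over the 17 20S genes, the 20 19S genes and all 12705 tested genes in each gradient, for low polysome over monosome (left) and high polysome over monosome (right). Points are gradients, and bars are the mean ± SD of 3 gradients. In the right panel the KO medians of the 20S (0.95 to 1.0) lie below those of WT (1.43 to 1.58) and those of the 19S overlap, while in the left panel the 19S medians are higher in Ddx6 KO and those of the 20S overlap.

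Among the standard catalytic subunits, Psmb5 was called lower and Psmb6 and Psmb7 were not, although the call of Psmb6 depended on the fit. Psmb5, which encodes the chymotrypsin-like site, was at 57.3, 71.8 and 70.9 CPM in the WT monosome and at 104, 114 and 135 CPM in the KO monosome. In the low polysome it was at 112, 99.7 and 129 CPM in WT and at 158, 189 and 188 CPM in Ddx6 KO. Its high polysome values were 304, 311 and 312 CPM in WT and 276, 309 and 353 CPM in Ddx6 KO. Thus the KO values lay above all WT values outside the high polysome, where they overlapped. The translation level fell by 0.79 on the log2 scale (SE 0.20, limma adjusted p = 0.00938), and the call was kept when any 1 gradient was left out.

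Psmb6, the caspase-like subunit, was at 259, 255 and 273 CPM in the WT monosome and at 285, 293 and 305 CPM in the KO monosome. In the high polysome it was at 774, 753 and 705 CPM in WT and at 557, 620 and 654 CPM in Ddx6 KO, and in the low polysome at 370, 357 and 435 against 344, 469 and 455 CPM. Its groups overlapped only in the low polysome, and the KO effect of -0.45 ± 0.17 (SE) did not pass (limma adjusted p = 0.0715). Psmb6 did pass in some alternatives and not in others. It passed with library size alone, no filter and only the compared groups fitted (limma adjusted p = 0.0182, 0.0388 and 0.014). The same held with size factors of DESeq2 and with the replicate block (limma adjusted p = 0.0477 and 0.0496), and in the test of DESeq2 (adjusted p = 0.0299). Psmb7, the trypsin-like subunit, was at 106, 137 and 102 CPM in the WT monosome and at 109, 139 and 146 CPM in the KO monosome. The high polysome values were 352, 403 and 370 CPM in WT and 330, 358 and 320 CPM in Ddx6 KO, and in the low polysome at 129, 164 and 140 against 175, 202 and 237 CPM. Its KO effect of -0.34 ± 0.21 (SE) did not pass either (limma adjusted p = 0.256). Reads shared between these genes and their processed pseudogenes are lost to the restriction to unique alignments, and the pseudogenes held few counts over all libraries (17 for Psmb5-ps, 202 for Psmb6-ps2 and 0 for Psmb7-ps2).

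The other genes of the 20S with a lower translation level were Psma2, Psma7 and Psmb3, which encode structural ring subunits, and Psma8 and Psmb9. Psma7 (chosen after its values were seen) was at 538, 627 and 587 CPM in the WT monosome and at 707, 760 and 777 CPM in the KO monosome, while in the high polysome it was at 1107, 994 and 995 CPM in WT and at 737, 756 and 723 CPM in Ddx6 KO. The groups did not overlap in either fraction and lay in opposite orders. Its KO effect was -0.84 ± 0.14 (SE, limma adjusted p = 0.000798). Psma7 was also the 1 member called lower in the KO effect on the low polysome over monosome ratio, at -0.69 ± 0.14 (SE, limma adjusted p = 0.0107; 0.093 with WT gradient 1 and 0.132 with KO gradient 3 left out). The KO effect was -0.70 ± 0.16 for Psma2 (limma adjusted p = 0.00654) and -0.80 ± 0.25 for Psmb3 (limma adjusted p = 0.0297). The call for Psma2 was kept when any 1 gradient was left out, and that for Psmb3 was lost when WT gradient 1, KO gradient 1 or KO gradient 2 was left out. Psmb2, a structural beta subunit, had an estimate as low as that of Psmb5, -0.78 ± 0.32, and did not pass (limma adjusted p = 0.0901). It passed with only the compared groups fitted (-0.87, limma adjusted p = 0.00177) and in the test of DESeq2 (-0.84, adjusted p = 0.0405).

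The lowest estimates belonged to less abundant genes. Psmb9, an interferon-inducible catalytic subunit, was at 1.59, 2.09 and 2.49 CPM in the WT monosome and 5.52, 2.80 and 4.99 CPM in the WT high polysome, and at 5.74, 2.90 and 2.82 CPM in the KO monosome and 2.45, 1.30 and 1.64 CPM in the KO high polysome. In the low polysome it was at 4.29, 4.22 and 1.78 CPM in WT and 3.68, 3.27 and 3.33 CPM in Ddx6 KO. Its KO effect was -1.97 ± 0.62 (SE, limma adjusted p = 0.0333), and the call remained in 1 of the 6 fits that left out a gradient (that without WT gradient 2). Psma8, an alpha subunit known from testis, was at 12.7, 19.5 and 11.2 CPM in the WT monosome and at 18.4, 22.7 and 25.8 CPM in the KO monosome, and in the high polysome at 34.9, 36.7 and 33.1 CPM against 28.8, 26.7 and 28.2 CPM. Its low polysome values overlapped, with 28.9, 27.04 and 32.1 CPM in WT and 25.7, 31.9 and 28.3 CPM in Ddx6 KO. Its KO effect was -0.95 ± 0.25 (SE, limma adjusted p = 0.0134), lost when WT gradient 3, KO gradient 2 or KO gradient 3 was left out. Psmb10 moved the other way within the 20S, with a KO effect of 0.34 ± 0.28 that did not pass (limma adjusted p = 0.427).

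**Figure D3:**
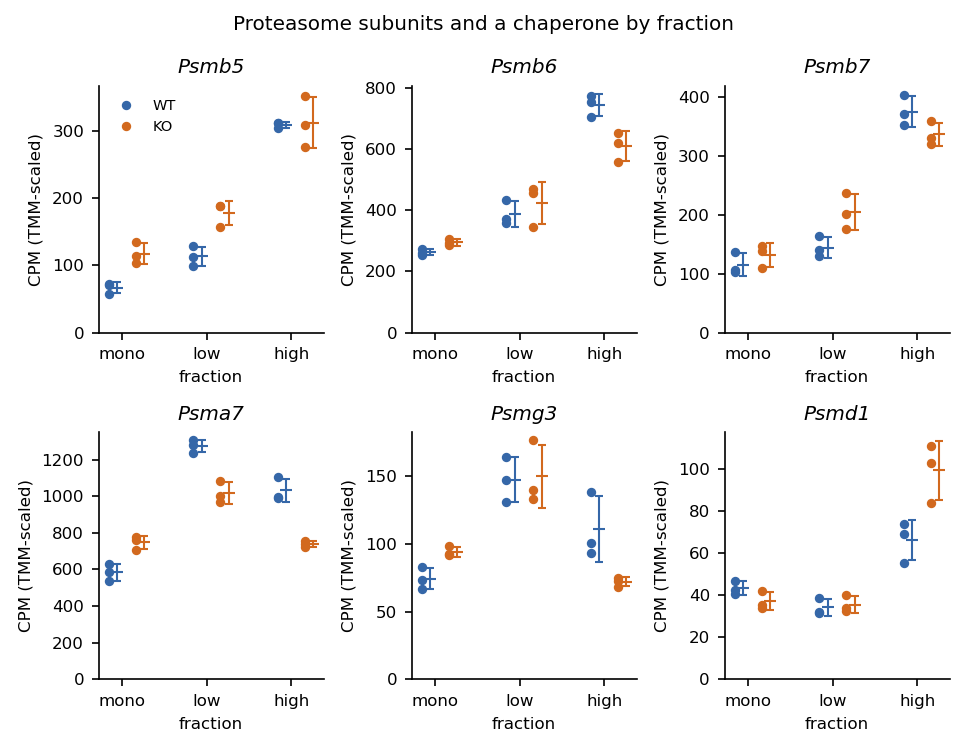
TMM-scaled CPM of Psmb5, Psmb6, Psmb7, Psma7, Psmg3 and Psmd1 by fraction. Points are gradients (WT blue, Ddx6 KO orange), and bars are the mean ± SD of 3 gradients. At the high polysome, Psmb6, Psma7 and Psmg3 are lower in every KO gradient than in any WT gradient, and Psmd1 is higher.

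In the 19S particle, the genes with a lower translation level were the lid subunit gene Psmd8 (KO effect -0.55 ± 0.18, limma adjusted p = 0.0388) and the base chaperone gene Psmd9 (-0.69 ± 0.21, limma adjusted p = 0.0302). Psmd8 was more abundant in the KO monosome by 0.71 ± 0.13 on the log2 scale (limma adjusted p = 0.000192). The call for Psmd8 was kept in 2 and that for Psmd9 in 1 of the 6 fits without a gradient, lost for both with WT gradient 1, KO gradient 2 or KO gradient 3 left out, for Psmd8 also with WT gradient 2, and for Psmd9 also with WT gradient 3 or KO gradient 1 left out. The 6 ATPase genes ranged from -0.10 to 0.26 and none was called. The 8 lid genes ranged from -0.55 to 0.39.

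Psmd1, the large base scaffold RPN2 (chromosome 1, 86064619 to 86139151, plus strand, GRCm38), was the 1 member with a higher translation level. In the monosome it was at 42.6, 46.9 and 40.6 CPM in WT and at 33.9, 42.2 and 35.5 CPM in Ddx6 KO. In the high polysome it was at 55.4, 73.7 and 69.1 CPM in WT and at 84.1, 111 and 103 CPM in Ddx6 KO. The groups did not overlap in the high polysome, and overlapped in the monosome and also in low polysome fractions (31.6, 32.1 and 38.8 CPM in WT and 34.0, 40.2 and 32.3 CPM in Ddx6 KO). The KO effect was 0.81 ± 0.22 (SE, limma adjusted p = 0.0141), and the call was lost with WT gradient 1, WT gradient 2 or KO gradient 3 left out. The next highest estimates were those of Psmd4, the ubiquitin receptor RPN10, and Psmf1, the inhibitor PI31, and neither passed. Psmd4 had translation levels of 1.29, 0.14 and 1.09 in WT and 0.68, 1.49 and 1.69 in Ddx6 KO (KO effect 0.45 ± 0.32, limma adjusted p = 0.347). Psmf1 had levels of 0.89, 0.72 and 0.85 in WT and 1.06, 1.24 and 1.48 in Ddx6 KO (0.45 ± 0.29, limma adjusted p = 0.28). The Psmd4 gradients overlapped between the genotypes, with WT gradient 2 the lowest of all, and the Psmf1 gradients did not.

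The assembly chaperone genes had negative medians. The median KO effect was -0.46 over the 4 genes for 20S assembly chaperones and -0.41 over the 3 genes for base assembly chaperones, and 1 of each group was called lower. Psmg3 was at 73.7, 66.7 and 82.9 CPM in the WT monosome and at 91.5, 92.2 and 98.6 CPM in the KO monosome, and in the high polysome at 139, 93.2 and 100 CPM in WT and at 72.5, 68.4 and 75.1 CPM in Ddx6 KO. The genotypes were in opposite orders in these fractions, with no overlap, and overlapped in the low polysome at 164, 147 and 131 CPM in WT and 133, 177 and 140 CPM in Ddx6 KO. The KO effect of Psmg3 was -0.94 ± 0.21 (SE, limma adjusted p = 0.00583) and was called without any 1 gradient.

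The translation level was also compared with coding length, since the 20S genes are uniformly short, at 603 to 831 nt, and the 19S genes reach 2859 nt. Across genes, Spearman's rho of coding length with the KO effect on translation level was 0.63 over the 47 members and 0.54 over 11778 tested genes with an annotated coding length (a description across genes, which share libraries and are not independent replicates). Within the particles it was 0.42 for the 20S and 0.29 for the 19S. Of the 28 members up to 900 nt, 8 were lower and 0 higher, and of the 19 longer members 1 was lower and 1 higher. Among all tested genes of 600 to 900 nt the median KO effect was -0.33, with 14.8% called lower and 1.7% called higher, and among those of over 900 to 3000 nt the median was 0.12, with 2.86% and 11.9%. When the trend on coding length was removed from each library before the fit, the median over the 20S genes was -0.21 and that over the 19S genes -0.01, and the members called were Psma7, which was lower (-0.51 ± 0.14, limma adjusted p = 0.0297), and Psmg4, which was higher (0.73 ± 0.16, limma adjusted p = 0.0124). The adjusted p of Psmb5 was then 0.152, that of Psmg3 0.273 and that of Psmd1 0.229 (limma). Without the correction, the KO effect of Psmg4 was 0.18 ± 0.21 (limma adjusted p = 0.58), and its gradients overlapped between the genotypes.

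**Figure D4:**
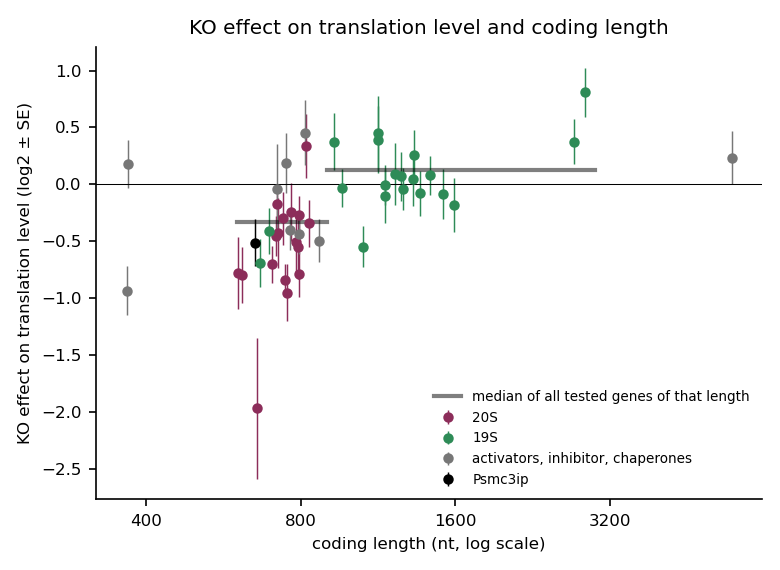
KO effect on translation level (log2, ± SE of the fit) against coding length (nt, log scale) for the 47 members, coloured by particle. Grey bars are the medians of all tested genes of 600 to 900 nt (-0.33) and of over 900 to 3000 nt (0.12). The 20S genes lie together at 603 to 831 nt, mostly below 0, and the 19S genes over 900 nt lie around 0.

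Ratios of the low polysome to the monosome gave few calls. The KO effect on the low polysome over monosome ratio was called for 1 of 47 members, Psma7, which was lower, where 2.39% of all tested genes were lower and 2.31% higher. Without WT gradient 1 or KO gradient 3 no member was called, while 3 were called higher without KO gradient 1 (Psmf1, Psmd2 and Psmd13) and 1 without WT gradient 3 (Psmc4). The median KO effect was 0.45 over the 19S genes, 0.0049 over the 20S genes and 0.018 over all tested genes. The 19S median was 0.29 without KO gradient 2 and 0.31 without WT gradient 2. With the coding length trend removed, the medians were 0.35 over the 19S genes, 0.18 over the 20S genes and 0.016 over all tested genes. In the gradients, the median log2 ratio of low polysome to monosome over the 19S genes was -0.11, -0.29 and 0.13 in WT and 0.15, 0.48 and 0.25 in Ddx6 KO, with no overlap, and that over the 20S genes was 0.43, 0.38 and 0.45 in WT and 0.48, 0.40 and 0.32 in Ddx6 KO, with overlap. No 19S gene passed the test on its own (10 of 20 had an unadjusted p under 0.05, as did 2635 of all 12705 tested genes).

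Levels were also summed over each particle. A 3′ end count is 1 per transcript end and is not divided by length, so that CPM can be added over genes. The 20S genes summed to 2641 ± 174 CPM in the WT monosome and 3107 ± 196 CPM in the KO monosome, to 4013 ± 100.0 and 4233 ± 234 CPM in the low polysome, and to 7004 ± 303 and 5626 ± 274 CPM in the high polysome (SD, n = 3 gradients). The sums did not overlap between genotypes in the monosome or the high polysome. The 19S genes summed to 3653 ± 379 and 3767 ± 256 CPM in the monosome, to 3859 ± 252 and 5374 ± 820 CPM in the low polysome, and to 8562 ± 974 and 8735 ± 704 CPM in the high polysome. These sums overlapped in the monosome and the high polysome and not in the low polysome. CPM gives a share of a fraction's mRNA and not an amount per cell.

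Within single fractions, the levels of proteasome genes in Ddx6 KO were compared with WT directly. In the monosome 10 members were higher and 4 lower (18.6% and 20.1% of all tested genes). In the low polysome 15 were higher and 5 lower (23.4% and 24.3%). Finally, 4 were higher and 10 lower in the high polysome (25.3% and 21.1%). By particle, 5 20S genes (Psma7, Psma8, Psmb3, Psmb5 and Psmb10) were higher and 0 lower in the monosome. This count was 3 with WT gradient 1 left out, 2 with KO gradient 3 left out, and 2 higher and 1 lower with the coding length trend removed, where Psma7, Psma8 and Psmb3 lost the call. Psma7 also lost it without KO gradient 3, Psma8 with WT gradient 1, WT gradient 3 or KO gradient 3 left out, and Psmb3 with WT gradient 1, KO gradient 1 or KO gradient 3 left out. In the low polysome 4 20S genes (Psma4, Psmb2, Psmb5 and Psmb7) were higher and 1 (Psma7) lower, with 1 higher without KO gradient 3 and 2 without WT gradient 3. For Psmb2 the limma adjusted p was 0.0488. Its call was lost with DESeq2 size factors, library size alone, no filter or the compared groups only (limma adjusted p up to 0.192). The tests of edgeR and DESeq2 gave adjusted p = 0.0711 and 0.0752. Omitting a gradient also removed this call, except for WT gradient 1 and KO gradient 2. For Psma4, limma adjusted p was 0.0799 omitting WT gradient 1, 0.0596 omitting WT gradient 3 and 0.112 omitting KO gradient 3. Of the 20S genes in the high polysome, 1 was higher (Psmb10) and 4 lower (Psma2, Psma7, Psmb1 and Psmb9), where the share of lower genes was near the 21.1% of all tested genes. The 19S genes gave 2 higher (Psmd8 and Psmd9) and 2 lower (Psmc2 and Psmc3) in the monosome, 7 higher (Psmd2, Psmd3, Psmd7, Psmd8, Psmd10, Psmd13 and Psmd14) and 0 lower in the low polysome, and 1 higher (Psmd1) and 0 lower in the high polysome. The low polysome call of Psmd2 (limma adjusted p = 0.0458) was kept, of the fits without a gradient, only in that without KO gradient 1. It was also lost with size factors of DESeq2 and with only the compared groups fitted. The call of Psmd14 was lost without WT gradient 3 or KO gradient 3 and with only the compared groups fitted. That of Psmd10 was lost without WT gradient 2. With size factors of DESeq2 there were 4 lower 19S genes in the high polysome, and with the coding length trend removed 5 lower and 0 higher. The lower 19S genes in the monosome were 0 without WT gradient 2, 0 without KO gradient 3 and 1 without WT gradient 1 or KO gradient 1. All 4 genes for 20S assembly chaperones were lower in the high polysome, from -0.72 for Psmg1 to -0.37 for Psmg2, whose call was lost without WT gradient 2 or KO gradient 3 (limma adjusted p = 0.131 and 0.0521). With the coding length trend removed, the high polysome calls of Psmg2 (-0.25), Psmg3 (-0.27), Psmg4 (-0.27), Psmb1 (-0.24) and Psmd1 (0.28) were lost (limma adjusted p = 0.0954, 0.138, 0.0819, 0.0703 and 0.0709). The monosome counts were 6 higher and 2 lower without KO gradient 3 and 11 higher and 2 lower without WT gradient 2, and the low polysome counts were 8 higher and 4 lower without KO gradient 3, 11 higher and 3 lower without WT gradient 2 and 15 higher and 3 lower without KO gradient 2. With size factors of DESeq2 in place of TMM, 16 members were lower in the high polysome.

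The PA28 activator genes were higher in every fraction of Ddx6 KO cells. Psme1, Psme2 and Psme4 are given in full after their values were seen. Psme1 (PA28 alpha; chromosome 14, 55578360 to 55581528) was at 41.4, 54.4 and 28.6 CPM in the WT monosome and 67.4, 63.5 and 65.5 CPM in the KO monosome, at 32.3, 33.9 and 38.7 against 72.8, 113 and 78.7 CPM in the low polysome, and at 106, 86.8 and 102 against 163, 194 and 197 CPM in the high polysome. Its KO effects were 0.72 ± 0.20, 1.31 ± 0.18 and 0.91 ± 0.17 (SE) in these fractions, with limma adjusted p = 0.00746, 8.62e-06 and 0.000176. The monosome call of Psme1 was lost without WT gradient 3 and with the coding length trend removed (limma adjusted p = 0.117 and 0.0524). The neighbouring Psme2 (PA28 beta; chromosome 14, 55587441 to 55591101) was at 5.18, 4.65 and 8.08 CPM in the WT monosome and 12, 18 and 23.3 CPM in the KO monosome, at 6.13 to 7.18 against 14.9 to 22.8 CPM in the low polysome, and at 7.06, 10.9 and 9.79 against 25.8, 27.2 and 23.7 CPM in the high polysome. For both genes the genotypes did not overlap in any fraction. The KO effects of Psme2 were 1.5 ± 0.33, 1.53 ± 0.25 and 1.46 ± 0.22 in the same order of fractions (limma adjusted p = 0.00115, 6e-05 and 2.04e-05). PA28 alpha and beta form 1 ring, and Psme2 had fewer CPM than Psme1 in every library. Reads shared by Psme2 and its intronless copy Psme2b are lost to the restriction to unique alignments.

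The other members of the inducible proteasome were partly higher. Psmb10 was at 33.8, 33.2 and 34.2 CPM in the WT monosome and 70.6, 46.1 and 57.1 CPM in the KO monosome, at 45.8, 35.1 and 34.8 against 46.7, 37.9 and 34.0 CPM in the low polysome, and at 10.9, 9.60 and 16.2 against 27.6, 23.9 and 25.6 CPM in the high polysome. It was called higher in the monosome (0.75 ± 0.19, limma adjusted p = 0.00436) and in the high polysome (1.09 ± 0.21, limma adjusted p = 0.000242), where the groups did not overlap, and not in the low polysome (0.025 ± 0.18, limma adjusted p = 0.92). Psmb9 was lower in the high polysome (-1.25 ± 0.39, limma adjusted p = 0.012) at levels of 1.30 to 5.52 CPM, a call lost without KO gradient 2 or KO gradient 3 (limma adjusted p = 0.068 and 0.0513). Of 7 genes for antigen processing (Tap1, Tap2, Tapbp, B2m, Erap1, H2-K1 and H2-D1), 6 were tested, and 4, 4 and 5 of them were higher and 0 lower across the fractions in the order used above, where 18.6%, 23.4% and 25.3% of all tested genes were higher and 20.1%, 24.3% and 21.1% lower. The 7 genes summed to 228 to 439 CPM in WT libraries and 587 to 975 CPM in KO libraries.

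Psme4, which encodes the nuclear activator PA200, moved in the opposite direction. It was at 90.8, 132 and 124 CPM in the WT monosome and 54.9, 62.2 and 56.9 CPM in the KO monosome, at 156, 201 and 239 against 86.2, 90.7 and 103 CPM in the low polysome, and at 200, 229 and 266 against 137, 121 and 153 CPM in the high polysome. Every KO value lay below every WT value of its fraction. The KO effects were -0.99 ± 0.17, -1.07 ± 0.16 and -0.76 ± 0.16 (SE, limma adjusted p = 0.000121, 1.77e-05 and 0.000525). Psmg4 was lower in all fractions as well, by -0.77 ± 0.14, -1.26 ± 0.14 and -0.59 ± 0.15 (limma adjusted p = 0.000198, 4.74e-07 and 0.00354), the last of which fell to -0.27 and lost its call with the coding length trend removed. Psme3 (PA28 gamma), which forms a nuclear ring of its own, was higher in the monosome (0.47 ± 0.13, limma adjusted p = 0.00899) and the low polysome (0.35 ± 0.12, limma adjusted p = 0.023), and its high polysome value was 0.07 ± 0.12. The monosome call of Psme3 was lost with WT gradient 3 or KO gradient 3 left out (limma adjusted p = 0.0801 and 0.0631), and its low polysome call with WT gradients 1 or 3 or KO gradients 2 or 3 left out (up to 0.132). Both calls of Psme3 were also lost with the coding length trend removed (limma adjusted p = 0.112 and 0.063). Its low polysome call was lost as well with only the compared groups fitted (limma adjusted p = 0.0584). For none of the 4 activator genes did the KO effect on translation level pass, with estimates of -0.40 to 0.23.

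**Figure D5:**
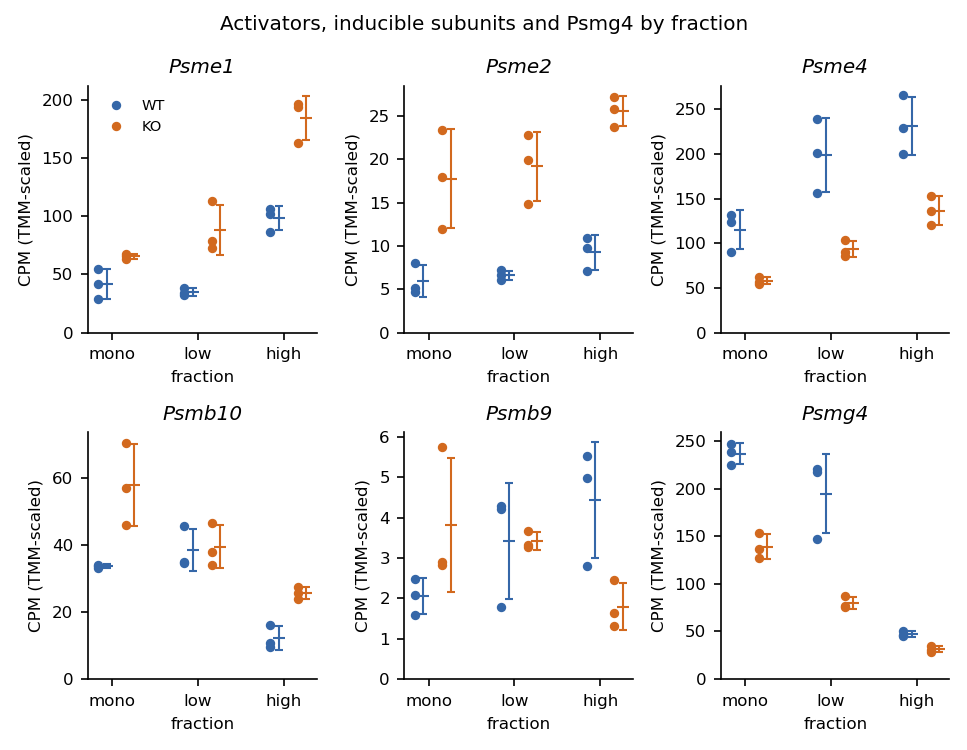
TMM-scaled CPM of the activator genes Psme1, Psme2 and Psme4, the inducible subunit genes Psmb10 and Psmb9 and the chaperone gene Psmg4 by fraction. Points are gradients (WT blue, Ddx6 KO orange), and bars are the mean ± SD of 3 gradients. Psme1 and Psme2 are higher and Psme4 and Psmg4 lower in all KO gradients of every fraction, and Psmb9 stays under 6 CPM.

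Of 29 genes listed for the ubiquitin and proteasome pathway around the particles, 28 were tested. In WT, 18 had a higher and 1 a lower high polysome than monosome level, with a median log2 ratio of 0.84, where 28.9% and 32.2% of all tested genes were higher and lower. The KO effect on translation level was higher for 4 and lower for 2 of the 28, near the 10.7% and 7.09% of all tested genes, with a median near that of all tested genes. The genes with a higher translation level included Uba1, the main ubiquitin-activating enzyme (1.47 ± 0.25, limma adjusted p = 0.000966), Vcp, an ATPase that extracts ubiquitinated proteins (0.82 ± 0.28, limma adjusted p = 0.0455), and Nfe2l2, which encodes NRF2 (0.78 ± 0.20, limma adjusted p = 0.0117). Those with a lower translation level included Pomp, the maturation chaperone of the 20S (-0.68 ± 0.16, limma adjusted p = 0.00744). The translation level of Pomp was 0.87 ± 0.13 in WT and 0.19 ± 0.11 in Ddx6 KO (SD, n = 3 gradients). That of Vcp was 0.36 ± 0.22 in WT and 1.17 ± 0.51 in Ddx6 KO (SD, n = 3 gradients). Calls of these pathway genes are given with all gradients included and without a correction for coding length.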

How the data were processed

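The authors prepared QuantSeq 3′ FWD libraries, trimmed reads with cutadapt 1.14, kept unique STAR 2.5.3a alignments to mm10 and deposited raw counts per gene from featureCounts 1.5.3 (forward strand, Gencode basic annotation). Each read marks a transcript's 3′ end. No molecular identifiers are named, so that PCR copies are counted. Here, 51274 of 51467 gene IDs were matched to Gencode symbols. Genes with at least 3 CPM in 3 libraries (12705) were fitted with limma 3.58.1 (voom, TMM factors of edgeR 4.0.16, 6 group means, Benjamini-Hochberg over all genes, R 4.3.3). This followed tests on simulated data, in which 52.5% of 40 genes with a log2 KO effect of 1 were recovered. Of the genes called there, 6.29% were false. Each simulated gene had the same mean in all groups, except for the changed genes in the KO high polysome, unlike the real fractions. SEs are those of the fit. Ratios per gradient used a pseudocount of 0.5 CPM. Members, gene lists and tests were chosen with earlier results of these data known. Library values, in some fractions or as translation levels, are given for the catalytic and inducible subunits, the 3 lowest and 3 highest KO effects on translation level and the 2 highest and lowest WT translation levels. Fractions of 1 gradient share a lysate, which pairs them within a genotype, and their deviations from group means had correlations of -0.11 to 0.10 between high polysome and monosome, -0.048 to 0.21 between low polysome and monosome and -0.18 to 0.48 between high and low polysome. WT and KO gradients share only a number. Alternatives were DESeq2 1.42.0, edgeR's quasi-likelihood test, other scalings, no filter, a coding length correction, blocks and leaving out gradients. Some genes of the pathway list are not reported here by name.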

Additional observations from a re-analysis of the deposited data

Results flagged for a closer look

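The KO effect differed between the high polysome and the monosome, by the interaction term, for 10 of 47 members, where 7.09% and 10.7% of all tested genes were called lower and higher. It was lower in the high polysome for Psmb9 (-1.97), Psma8 (-0.95), Psmg3 (-0.94), Psma7 (-0.84), Psmb3 (-0.80), Psmb5 (-0.79), Psma2 (-0.70), Psmd9 (-0.69) and Psmd8 (-0.55), and higher for Psmd1 (0.81). For Psma7 it also differed between the low polysome and the monosome (-0.69). Counts were found for members under the filter on low counts, which enter no comparison. Over the 9 KO libraries Psmb8, the third interferon-inducible catalytic subunit gene, had 50 counts, Psme2b had 56 and the thymus subunit gene Psmb11 had 6, against 8, 11 and 0 counts over the 9 WT libraries. In each of them the highest library was at 1.2 CPM or less. The spike-in sequences, which the labels do not describe as added, had 28 to 169 counts in a library, at most 0.00217% of its counts.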

How the results depend on the processing

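The numbers of members called lower in the KO effect on translation level (9) were 14 with library size alone, 14 with DESeq2, 16 with the compared groups only and 1 with the coding length trend removed. The 1 higher member was lost with no filter (0). In the low polysome over monosome ratio, DESeq2 called 1 higher, and the length correction called 0 lower. In the monosome, 2 were lower with no filter and 4 higher and 8 lower with the length correction. In the low polysome, 3 were lower with no filter and 3 with the compared groups only. In the high polysome, 16 were lower with DESeq2 size factors and 17 with DESeq2. The cause was not tested. Leaving out each gradient gave 41 to 42 higher and 2 lower members in WT, 0 to 2 higher and 4 to 8 lower for the translation level, 0 to 3 and 0 to 1 for the low polysome over monosome ratio, 6 to 11 and 2 to 4 in the monosome, 8 to 18 and 3 to 5 in the low polysome, and 4 to 5 and 9 to 12 in the high polysome. The 20S minus 19S median ranged from 0.17 to 0.29 in WT and from -0.36 to -0.29 in Ddx6 KO, and was 0.38 and -0.24 for the mature particles. With the replicate block, 1 member was higher and 10 were lower for the translation level, and no count moved by over 1.5 times. The block was the gradient for the ratios. For single fractions it was the number that WT and KO gradients share, so those counts say nothing about a pairing. At 1.30 to 5.74 CPM, Psmb9 rests on few counts.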
